A study of Mus musculus with 2 samples.

Results

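Open chromatin inside the 3' untranslated parts of protein-coding genes was described in newborn mouse hindbrain. A region was counted when the merged peaks of both replicates held a peak of each, when it lay over 2000 bp from every annotated start site, and when its midpoint fell in an annotated 3' UTR of a protein-coding gene and in no coding sequence. The rule found 1452 such regions (1.06% of the 136714 shared regions and 1.59% of the 91172 that lay over 2000 bp from a start site), in 1227 host genes. No score entered the rule.

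The assay was DNase-seq, in which the nuclease DNase I cuts accessible DNA and clusters of cuts are called as peaks. Both libraries came from hindbrain of healthy B6NCrl mice on postnatal day 0, with males and females pooled. They formed 1 group of 2 biological replicates recorded under the same donor entry, and no source read here says how many animals each replicate holds. There was no second condition, so no test over samples was possible and the comparisons are between kinds of region within these libraries, with 95% intervals that cover counting error only.

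A 3' UTR is the stretch of a messenger RNA between the stop codon and the poly(A) tail, where microRNAs and RNA-binding proteins act on the transcript. The same stretch is also DNA, and transcription factors can occupy it as they occupy introns and intergenic enhancers. CTCF is a zinc finger protein that binds a long motif, holds chromatin loops and marks domain borders in most cell types. RFX factors bind a palindromic box, and several of them drive genes of cilia in ependymal cells and neural progenitors.

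Short stretches of sequence show the CTCF and RFX motifs in regions chosen because they hold them. They are not typical of the strongest regions: of the 12 regions of highest rank, 2 held the CTCF consensus. The first 8 lines give the CTCF core consensus of 12 letters in capitals, with 4 flanking bases on each side, in 8 of the highest-ranked regions that hold it; each is written 5′ to 3′ on the strand that matches the consensus. Build mm10 (GRCm38) was used and positions are 1-based.
Ror2, chr13:53109752-53109763, plus strand: tccgCCAGCAGGGGGCtcac
Slc4a3, chr1:75559676-75559687, minus strand: accaCCACCAGAGGGCtaca
Dand5, chr8:84815731-84815742, minus strand: ttagCCACTAGGTGGCaccg
Cavin1, chr11:100957429-100957440, minus strand: ggttCCAGCAGGGGGCagca
Rgs7bp, chr13:104948124-104948135, plus strand: gtttCCACTAGGTGGCagca
Slc43a2, chr11:75573554-75573565, minus strand: tctgCCAGCAGGGGGCactg
Pigz, chr16:31944154-31944165, plus strand: gtgtCCACCAGGGGGCcttg
Scml4, chr10:42958328-42958339, plus strand: tgctCCACTAGAGGGCagac
The next lines give the RFX box (GTTNCC, AT and GGNAAC in a row, 14 letters, capitals) in the 3 regions of highest score rank that hold it, chosen after their values were seen and written on the strand of the host gene, since the box is its own reverse complement.
Fam13a, chr6:58933379-58933392, minus strand: attgGTTTCCATGGCAACtgtc
Nrl, chr14:55519117-55519130, minus strand: cacaGTTGCCATGGTAACccag
Meltf, chr16:31897586-31897599, plus strand: gctgGTTGCCATGGCAACcgtg

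The hindbrain label was checked at promoters, with a peak of each replicate within 500 bp of a start site. All 13 hindbrain and cerebellar markers (En1, Zic1 and Hoxb2 among them), all 5 neuronal and all 5 glial markers had one, against 0 of 5 liver, 0 of 4 skeletal muscle and 0 of 4 blood markers. The separation was not complete in the longer lists used below. There, 1 of 15 liver genes and 4 of 11 skeletal muscle and heart genes had such a peak. Only list members with at least 150 bases of 3' UTR far enough from start sites were counted. In bulk tissue, a region open in few cells and one weakly open in many cells cannot be told apart. The lists held 270757 peaks in replicate 1 and 171790 in replicate 2 on chromosomes 1 to 19, X and Y. Read depth is unknown, because the tables hold regions and no read counts. The value of a peak is the authors' score, a whole number from 1 to 150 of unstated scaling, so it was read as a rank within its own list.

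The 3' UTR regions were denser than introns and less dense than coding sequence. Eligible sequence is annotated sequence far enough from every start site to have held such a region. Per Mb of it, 3' UTRs held 54.4 regions (95% Poisson interval 51.6 to 57.2, 1452 regions in 26.7 Mb). Coding sequence held 72.6 (69.0 to 76.4) and exons outside both held 60.1 (56.7 to 63.7). Introns held 46.9 (46.5 to 47.4) and intergenic sequence 32.1 (31.8 to 32.4). The ratio of 3' UTR to intron was 1.16 (1.10 to 1.22), and it was 1.03 when only regions lying wholly inside the 3' UTR were counted on the 3' UTR side. Repeat-masked bases made up 5.01% of eligible coding sequence, 19.4% of 3' UTR, 23.6% of other exons, 30.6% of introns and 43.6% of intergenic sequence. The regions themselves held a mean of 7.5% in 3' UTR and 8.44% in introns. The densities count masked bases as eligible, and whether repeats bear on the ratio was not tested. The differences between locations were not tested over samples. Peaks of replicate 1 alone gave 3086 regions in place of 1452, and peaks of replicate 2 alone 1774.

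**Figure D1:**
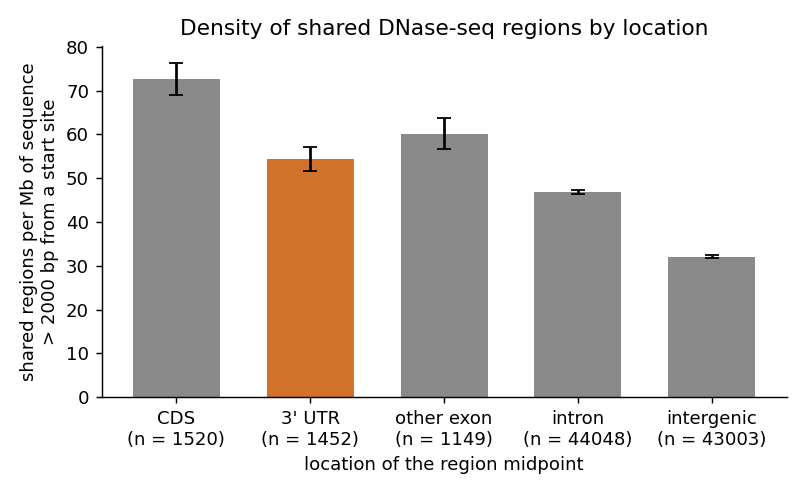
Shared regions per Mb of eligible sequence (vertical axis) by the location of the region midpoint (horizontal axis); bars are densities, lines are 95% Poisson intervals and n is the number of regions. The 3' UTR bar stands at 54.4 per Mb, between coding sequence at 72.6 and introns at 46.9.

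Most of these regions were narrow and lay whole within the untranslated stretch. The median width was 170 bp (range 150 to 530), 1382 of 1452 (95.2%) were built from 1 peak of each replicate, and 1290 (88.8%) lay wholly inside 3' UTR. In 132 (9.09%) coding sequence of the host gene lay further downstream, and in 146 (10.1%) the body of another gene ran over the midpoint. More than 1 host gene was found for 23. The nearest start site was 7299.5 bp away at the median (lower quartile 3945, farthest 187229). It belonged to the host gene at 752 regions and to another gene at 700. Regions with another gene's start nearest had scores close to the rest, at a median of 63 (replicate 1) and 41.5 (replicate 2), where regions nearest their own host's start had 65.5 and 42.

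The distance limit separated regions with like scores. The 3 regions just inside it lay in Fam84a (2004 bp, scores 49 and 40 in replicates 1 and 2), Aak1 (2006 bp, 84 and 47) and Prdx2 (2017 bp, 92 and 68). The 3 just outside lay in Ffar1 (1999 bp, 105 and 77), Fmnl3 (1996 bp, 45 and 31) and A930004D18Rik (1995 bp, 71 and 50). In all, 648 shared regions in 3' UTR lay within the limit, with median scores of 69.5 and 47.5.

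Score was a rank that both replicates shared. Over the 1452 regions the scores ran from 7 to 142 in replicate 1 (median 65, quartiles 48 and 86) and from 10 to 136 in replicate 2 (median 42, quartiles 31 and 62). The percentile of the score within its own list was higher in replicate 1 at 1290 regions (88.8%) and higher in replicate 2 at 162 (11.2%); the lists differ in length, so this shows no change between replicates. The raw numbers, whose scales may differ between the lists, were higher in replicate 1 at 1403 regions, higher in replicate 2 at 40 and equal at 9. Spearman's rho between the replicates was 0.894 over these regions and 0.913 over all shared regions, as a description of 2 lists called from related tissue. The mean percentile within the 2 lists had a median of 63.6 (95% order-statistic interval 61.1 to 65.7), beside 62.1 (60.3 to 64.2) for coding sequence and 59.4 (59.1 to 59.8) for introns. Hotspots, the wider intervals deposited with a −log10 q, were at their cap of 100 for 66.0% of the regions in replicate 1 and 41.6% in replicate 2, where 34.8% and 34.0% of all hotspots were. These sets are unlike, since the regions had to hold a peak of each replicate and the hotspots of a list did not. The excess therefore says nothing particular about 3' UTR.

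**Figure D2:**
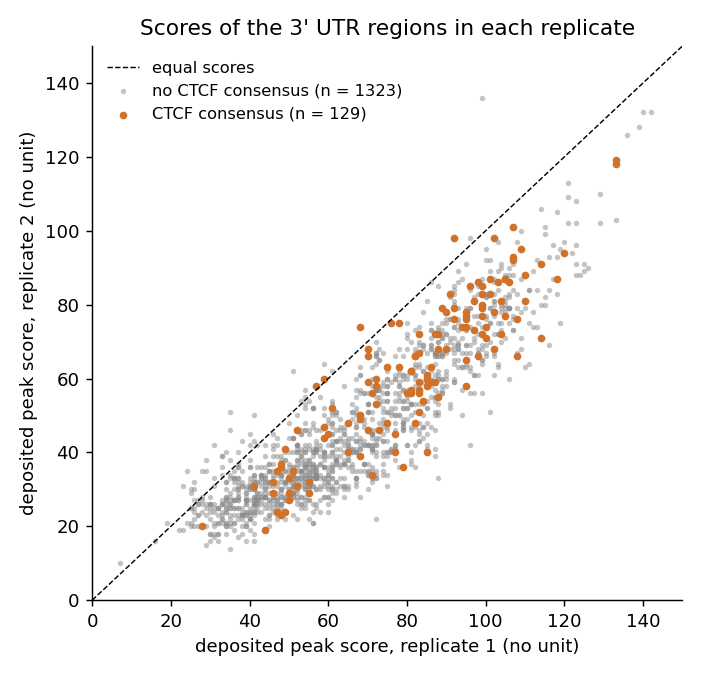
Deposited peak score of each 3' UTR region in replicate 1 (horizontal) and replicate 2 (vertical), without a unit; 1 point is 1 region, orange points are the 129 with the CTCF consensus and the dashed line marks equal scores. Of the 1452 points, 1403 lie under the line and 40 above it, the Lars2 region among them at 99 and 136.

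The 12 regions of highest rank belonged to genes of unlike roles. Scarf2, a scavenger receptor family member, held the first, at chr16:17807596-17807745, with scores of 142 and 132, 1137 bases past the stop codon. Shank1, a scaffold protein of the postsynaptic density, held the second, at chr7:44360096-44360265, with 140 and 132. The midpoint of this region also lay in a 3' UTR of 1700008O03Rik. The nonagouti gene (a), whose protein acts in coat colour, held the third at chr2:155050756-155050925, with 139 and 128 and only 42 bases past the stop codon. Skap2, an adaptor protein, followed with 136 and 126.

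Of the others, Ror2 is a receptor of noncanonical Wnt signalling. Its region, at chr13:53109656-53109805, scored 133 and 119 and lay 80738 bp from the nearest start site. Slc4a3, an anion exchanger, and St3gal2, a sialyltransferase, both scored 133 and 118. Shf, an adaptor protein, scored 129 and 110, and Stum scored 133 and 103 with its nearest start site 28187 bp away. Hist1h1d, a linker histone (121 and 113), Itga10, an integrin subunit (123 and 108), and Pigv, an enzyme of GPI anchor synthesis (121 and 109), complete the 12. All 12 had hotspots at the cap in both replicates, 5 were rich in CpG by the measure below and 2 held the CTCF consensus.

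Peaks in 3' UTR were found again in the other replicate at shares near those of peaks in introns. Of 3182 replicate 1 peaks placed in 3' UTR by the same rule, 1489 (46.8%, 45.0 to 48.5) overlapped a replicate 2 peak, where 51.6% of all replicate 1 peaks did. Of 1845 replicate 2 peaks, 1503 (81.5%, 79.6 to 83.2) overlapped a replicate 1 peak, where 82.5% of all replicate 2 peaks did. The recovery was 47.3% and 83.5% for intron peaks and 45.1% and 85.6% for those in coding sequence. Peaks of replicate 1 alone made up 1622 further regions in 3' UTR, and peaks of replicate 2 alone 309.

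Agreement followed the score. Among 3' UTR peaks of replicate 1, the share found in replicate 2 was 5.65% in the lowest of 10 bins of the whole list by score, 33.4% in bin 5 and 99.5% in the highest. For replicate 2 the same shares were 32.6% and 89.1%, and all 82 peaks of the highest bin were found. Peaks with the CTCF consensus were recovered in 132 of 145 cases (91.0%, 85.2 to 95.1) from replicate 1 and in 131 of 132 (99.2%, 95.9 to 99.98) from replicate 2. Without it the shares were 44.7% and 80.1%.

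**Figure D3:**
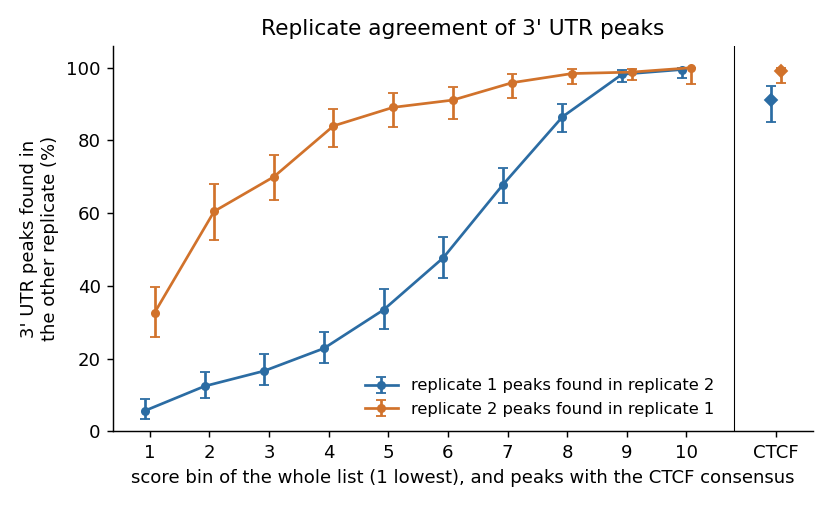
Share of 3' UTR peaks of one replicate found in the other (vertical axis, percent) by score bin, 10 bins of the whole list from low to high (horizontal axis), with peaks that hold the CTCF consensus at the right; lines are 95% exact binomial intervals. Replicate 1 (blue) climbs from 5.65% to 99.5%, and replicate 2 (orange) from 32.6% to all peaks.

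The regions were richer in G and C and poorer in repeats than the 3' UTR around them. Their median GC content was 52.0%, where the eligible 3' UTR sequence had 42.6%, and a mean of 7.5% of their bases was repeat-masked, where 19.4% of the eligible 3' UTR was. Windows of 150 bp in eligible 3' UTR outside all hotspots had a median GC of 42.7% over 160533 windows. Those windows were chosen by the readout, so values from them serve as a description. Regions in coding sequence had a median GC of 56.0% and intron regions 50%. CpG-rich regions, here with GC above 50% and an observed over expected CpG ratio above 0.6, numbered 80 (5.51%, 4.39 to 6.81), where 17.1% of all shared regions passed. In coding sequence the share was 27.4% and in introns 3.05%.

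The CTCF consensus was in 129 of the 1452 regions (8.88%, 7.47 to 10.5), searched on both strands in 150 bp around the midpoint, where 4.62% of all shared regions held it. It was in 3.62% of coding sequence regions, 5.24% of intron regions and 5.91% of intergenic regions over 2000 bp from a start site. In 3' UTR windows outside hotspots it was in 49 of 160533 (0.0305%). With replicate 1 peaks alone the share was 4.67%, and with replicate 2 peaks alone 7.33%. A match is a stretch of letters and not a bound site, and binding by CTCF was not measured.

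Regions with the consensus stood high in both lists. Their median scores were 84 and 63 in replicates 1 and 2, against 62 and 41 for the 1323 without it. Their hotspots were at the cap for 89.1% and 74.4%, against 63.7% and 38.4%. When the regions were ordered by score rank and cut into 5 groups of like size, the share with the consensus was 2.41% (7 of 291) in the lowest, 4.14%, 6.21% and 12.4% in the next, and 19.2% (56 of 291, 14.9 to 24.3) in the highest. The CpG-rich share was 13.7% in the highest group and 2.76% to 5.17% in the 4 others.

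The 8 regions printed above as CTCF examples lay across unlike 3' UTRs. The site in Ror2 lay 27 bp from its region's midpoint, and that in Slc4a3, in a region with scores of 133 and 118, lay 11 bp from it. Dand5, which encodes a secreted Nodal antagonist, scored 120 and 94. Cavin1, a coat protein of caveolae, scored 107 and 101, and Rgs7bp, an anchor of RGS7 family proteins, scored 114 and 91. Slc43a2, an amino acid transporter, scored 109 and 95. Pigz, another enzyme of GPI anchors, scored 118 and 87 in a 3' UTR of 254 bases, and Scml4 scored 107 and 93. These 8 were picked by rank among the regions with the consensus, so their high scores follow from the choice.

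The consensus sat close to the middle of the regions. Its centre was within 25 bp of the midpoint in 102 of 129 (79.1%), at a median distance of 14 bp. It ran along the host gene's sense strand in 63 regions and against it in 66, and no region held more than 1 match.

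Seen from the sequence, most CTCF matches in 3' UTR lay in open regions. Eligible 3' UTR held 209 matches, 7.82 per Mb, and 132 of them (63.2%, 56.2 to 69.7) lay in a peak of both replicates, where 47.7% of the 10731 matches in all locations did. The share was 32.9% (25.7 to 40.8) of 158 matches in coding sequence, 49.6% (48.2 to 51.0) of 4694 in introns and 46.0% (44.7 to 47.4) of 5540 in intergenic sequence. The number of matches per Mb was 7.55, 5.0 and 4.13 in these 3 locations. In 3' UTR 61 matches (29.2%) were in a peak of neither replicate. The interval of the 3' UTR share did not overlap those of coding sequence, introns or intergenic sequence, and no test over samples can be made of this.

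**Figure D4:**
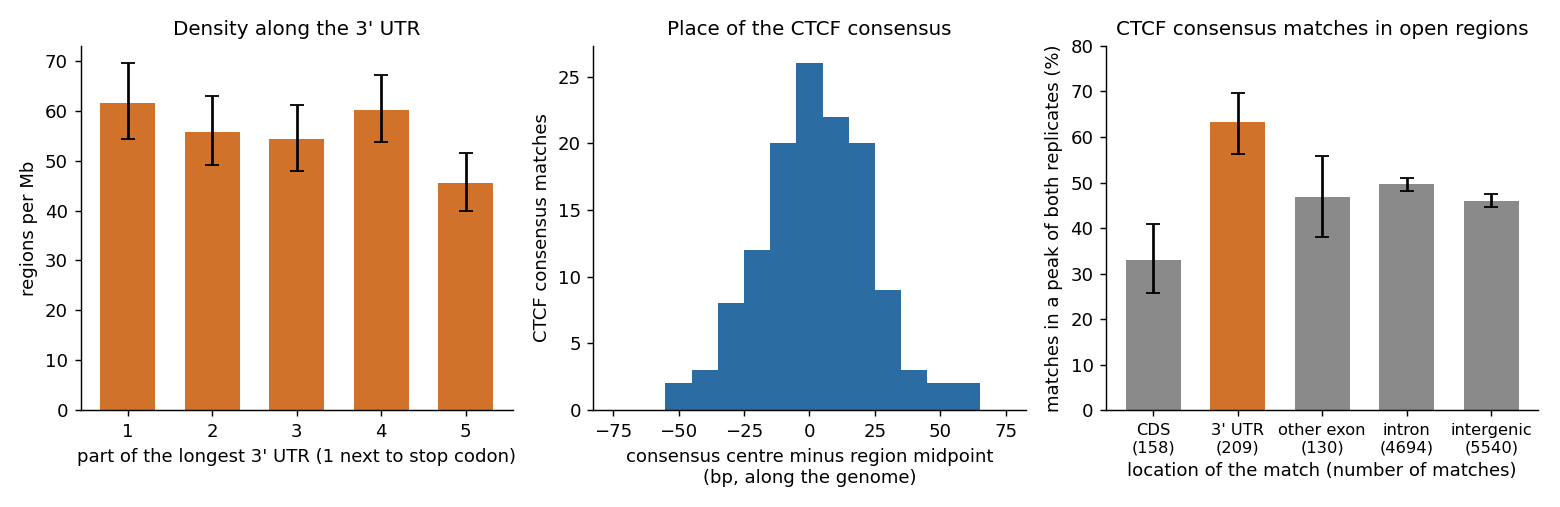
Left, 3' UTR regions per Mb (vertical axis) in 5 equal parts of the longest 3' UTR of the host from stop codon (1) to end (5), with 95% Poisson intervals; middle, number of CTCF consensus matches by distance from the region midpoint in bp; right, share of all CTCF consensus matches over 2000 bp from a start site that lie in a peak of both replicates, by location, with 95% exact binomial intervals. The last of the 5 is the lowest at 45.5 per Mb, matches gather near the midpoint and the 3' UTR share is 63.2%.

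The RFX box was in 13 regions (0.895%, 0.478 to 1.53), where 0.527% of all shared regions held it, and in 4 of the 160533 windows outside hotspots (0.00249%). Its centre lay within 25 bp of the midpoint in 12 of the 13. Of the 20 boxes in eligible 3' UTR, 13 (65%, 40.8 to 84.6) lay in a peak of both replicates, where 45.8% of the 1260 boxes in all locations did. The small number leaves an interval that holds the intron share of 48.2%.

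The 13 host genes were named after their values were seen. The highest ranked were Fam13a (scores 115 and 99), Nrl, a transcription factor of rod photoreceptors (95 and 73), and Meltf, an iron-binding membrane protein (82 and 67). Ky had the box in 1 of its 4 regions, with 69 and 47. Cracr2a, Igfbp5, Mfap3, Ttc16, Dio1, Grk3, Gas7 and Acot11 were among the others, with scores from 40 to 85 in replicate 1 and from 30 to 65 in replicate 2.

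Shorter motifs were common both in the regions and in the 3' UTR outside hotspots. The E-box CAGCTG was in 16.9% of regions (15.0 to 18.9) and 6.57% of windows, and the E-box CATCTG, read by proneural factors such as Atoh1 and Neurod1, in 21.2% (19.1 to 23.4) and 11.2%. Over all shared regions the shares were 15.8% and 17.4%, and in intron regions 17.8% and 21.1%. GGGCGG, the box of SP and KLF factors, was in 6.06% of regions, 1.79% of windows and 12.6% of all shared regions. TAATTA, read by homeodomain proteins, was in 2.75% of regions, 5.16% of windows and 4.31% of all shared regions. MEIS sites (TGACAG) were in 13.9% of regions, 10.7% of windows, 14.0% of all shared regions and 16.3% of intron regions. SOX sites (ACAAAG) were in 13.2%, 14.0%, 12.5% and 14.3% of these. All were searched on both strands in 150 bp, and the GC content of regions and windows differs as given above.

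The signal that directs cleavage and polyadenylation was less frequent in the regions. AATAAA on the strand of the transcript was in 68 regions (4.68%, 3.65 to 5.90) and in 12.5% of windows outside hotspots. The signal holds only A and T, and the mean GC was 52.2% in the regions and 42.4% in the windows. Whether base content bears on the difference was not tested. Of the 1355 regions with a place in the longest 3' UTR, 114 (8.41%) had a midpoint within 200 bases of its end, and 161 (11.9%) within 200 bases of the stop codon.

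Along the 3' UTR the density was lowest at the end. Cut into 5 equal parts from stop codon to transcript end, 3' UTRs held 61.6, 55.7, 54.3, 60.2 and 45.5 regions per Mb of eligible sequence. The part next to the stop codon had an interval of 54.4 to 69.5 and the last one of 39.9 to 51.6, a ratio of 1.36 (1.13 to 1.62). The intervals of the second part, from 49.2, and of the third, from 48.0, overlapped that of the last. With only regions lying wholly inside 3' UTR counted, the ratio was 1.06. The share with the CTCF consensus was 6.79% next to the stop codon, 8.78%, 10.3% and 11.1% in the middle ones and 7.82% in the last.

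Host genes had open promoters in 1080 of 1227 cases (88%, 86.1 to 89.8), where 66.3% of all 21938 protein-coding genes had a promoter peak of both replicates. Among the 15242 genes with at least 150 bases of eligible 3' UTR the share was 73.0%, and among the 14020 of them without a region 71.7%. Genes with longer 3' UTR had open promoters more often, so the shares were also read by length. With 150 to 500 eligible bases it was 76.4% of hosts and 57.1% of all genes of that length, and with 500 to 1000 bases 74.2% and 67.8%. With 1000 to 2000 bases it was 86.7% and 76.2%, with 2000 to 4000 bases 90.6% and 83.9%, and from 4000 bases 94.7% and 87.7%. The regions themselves scored below those promoters. Over the 1080 genes the best 3' UTR region had median scores of 69 and 44 in replicates 1 and 2 and the best promoter peak 129 and 107, and the 3' UTR was higher in both replicates in 94 genes (8.70%).

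A region was found in 1222 of the 15242 genes with at least 150 eligible bases (8.02%). The share went with length, from 2.14% of genes with under 500 eligible bases to 21.4% of those with 4000 or more. The density per Mb had no such order, at 70.2 in the shortest group and 47.0 in the longest. Most hosts held 1 region (1045 genes), 146 held 2, 29 held 3 and 7 held 4.

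Transcription factors of neural development were among the 7 genes with 4 regions. Sox4 and Sox11 are SoxC factors of newly formed neurons. In Sox4 the 4 regions scored 82 and 64, 83 and 74, 104 and 79, and 96 and 63 in replicates 1 and 2, spread over a 3' UTR of 2780 bases. In Sox11 the region nearest the stop codon, at chr12:27339276-27339445, scored 109 and 78, and that at chr12:27335496-27335685 scored 28 and 35. Sox4 thus had 4 regions of like score, and Sox11 1 that stood above the rest in both replicates.

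Meis1, a cofactor of Hox proteins and also a gene of granule cell precursors, held 4 regions from 45 to 87 in replicate 1 and from 29 to 67 in replicate 2. Creb5, a CRE-binding factor, held 4 weak ones, from 29 to 58 and from 20 to 33. Ephb2, a receptor of axon guidance, held 4 that scored 72 to 104 and 67 to 80. Ky, a gene of muscle maintenance, held 4 with 69 to 93 and 47 to 86. The first genes by symbol among those with 3 regions were Aak1, a kinase of endocytosis (51 to 87 and 29 to 72), Abl2, a tyrosine kinase (54 to 55 and 31 to 37), and Amer2, a Wnt regulator (52 to 80 and 30 to 55).

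Among 16 gene lists, granule cell lineage genes held a region most often, in 9 of 27 genes with eligible 3' UTR (33.3%, 16.5 to 54.0), where 8.02% of all such genes did. The lists were chosen with earlier results of these data known, and the 3' UTRs of their genes differ in length, so the density is given beside the share: 15 regions in 70.8 kb, or 212 per Mb. Zic4, a zinc finger factor of cerebellar progenitors, scored 105 and 81 at chr9:91386556-91386745. Cbln3, a secreted partner of cerebellin 1, scored 95 and 79 at chr14:55879716-55879885. Zic1 held 3 regions, with 39 and 27, 33 and 36, and 61 and 53. Ccnd1, the cyclin of precursor division, held 2, with 99 and 56 and with 82 and 53. The Ccnd1 region with 99 and 56 also had its midpoint in a 3' UTR of LTO1. Barhl1, Insm1, Ptch1 and Sema6a held 1 region each and Meis1 4. Atoh1, Neurod1 and Zic2 had under 150 bases of eligible 3' UTR and were not among the 27.

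Genes of neuronal RNA-binding proteins held a region in 10 of 37 cases (27.0%, 13.8 to 44.1), at 81.6 per Mb. Srrm4, a splicing factor of neural microexons, scored 94 and 63, and Rbfox3, whose protein is the neuronal nuclear antigen NeuN, scored 94 and 50. Ago1, a microRNA effector, scored 87 and 55. Celf1, Celf2, Elavl3, Nova1, Nova2, Rbfox2 and Tnrc6b held the others.

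Radial glia and astrocyte genes followed, with 6 of 25 (24.0%, 9.36 to 45.1) and 100.1 per Mb. Bcan, a proteoglycan of the brain's extracellular matrix, had the highest score of the list, 117 and 96, at chr3:87987716-87987865 and 80 bases past the stop codon. Sox9, a gliogenic factor, held 2 regions, with 77 and 61 and with 45 and 31, and Gfap, an astrocyte filament, 2 with 76 and 59 and with 36 and 21. Aqp4 and Zbtb20 were also among the 6.

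Axon guidance genes held a region in 7 of 36 (19.4%, 8.19 to 36.0), ion channels in 6 of 32 (18.8%, 7.21 to 36.4) and other hindbrain transcription factors in 7 of 43 (16.3%, 6.81 to 30.7). Their densities were 87.6, 64.3 and 124 per Mb, beside 54.4 over all eligible 3' UTR. Beside Ephb2, Unc5c, a netrin receptor, scored 88 and 68, and Ntn1, its ligand, 79 and 36; both of these regions held the CTCF consensus. Kcna2, a voltage-gated potassium channel, held a pair of regions near the end of its 3' UTR, with 111 and 64 and with 100 and 92. Cacnb1, a calcium channel subunit, scored 83 and 64. Lhx5, a LIM homeodomain factor of inhibitory neuron precursors, scored 110 and 81 and held the CTCF consensus.

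Neuronal genes of other kinds were near or under the background. Pan-neuronal and cytoskeleton genes had 1 of 30 (3.33%, 0.0844 to 17.2), the region of Dpysl3, which scored 101 and 89. Synapse and receptor genes had 2 of 37 (5.41%, 0.661 to 18.2), Shank1 with 3 regions and Shank2 with 1 (84 and 59). The densities were 13.9 and 29.2 per Mb. All 30 of the former and 36 of the latter had a promoter peak of both replicates. Most of these genes were thus open at the start and held no region in the eligible part of the 3' UTR.

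Chromatin regulators had 5 of 44 (11.4%, 3.79 to 24.6), among them Rcor2, a REST corepressor (104 and 73), and Tet1 (43 and 33). Oligodendrocyte genes had 3 of 24 (12.5%), namely Bcan, Bcas1 (72 and 66) and Mbp (79 and 47). Hox genes and cofactors had 1 of 12 (8.33%), Meis1, and the other 20 of the 32 had under 150 bases of eligible 3' UTR and were not counted. Housekeeping genes had 1 of 10, Tbp, with 40 and 19.

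Lists of other cell types were too short to be set apart from the 8.02% over all genes with eligible 3' UTR. Endothelial and mural genes had 2 of 16 (12.5%, 1.55 to 38.3), Acta2 (70 and 53) and Sox17 (23 and 31). Microglial genes had 0 of 16, which allows up to 20.6%, liver genes 0 of 15 (up to 21.8%) and skeletal muscle and heart genes 0 of 11 (up to 28.5%).

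**Figure D5:**
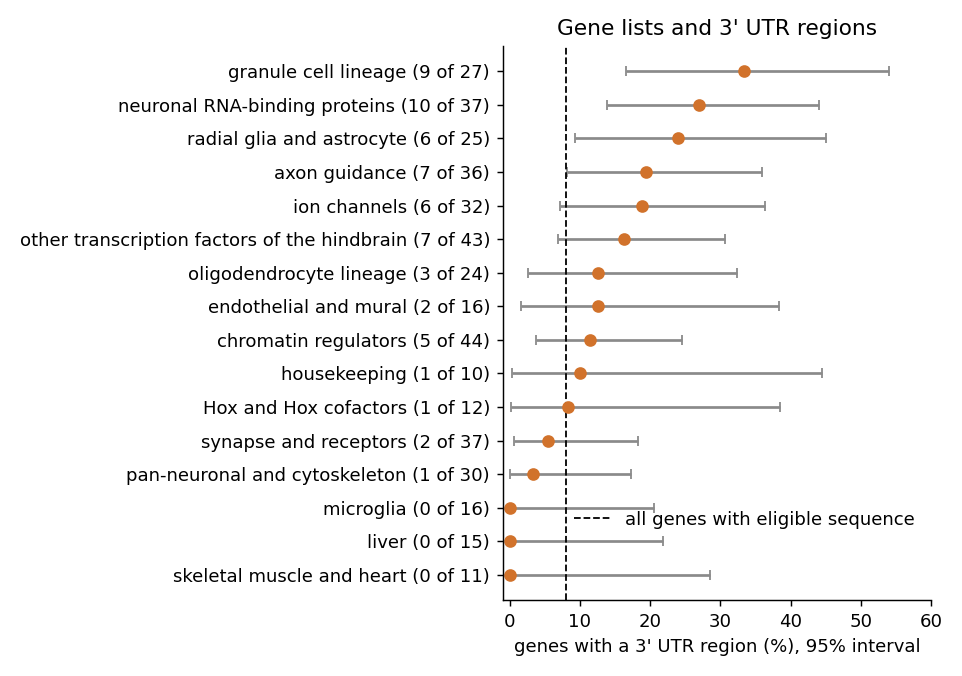
Share of genes with at least 1 region in 3' UTR (horizontal axis, percent) for 16 gene lists, with 95% exact binomial intervals and, in parentheses, the number with a region among genes with at least 150 eligible bases; the dashed line is the 8.02% over all such genes. The granule cell lineage, RNA-binding protein, radial glia and axon guidance lists have intervals wholly to the right of the line. The line covers genes of all lengths, and the lists were not matched to it for length. Over all genes the share was 13.2% with 2000 to 4000 eligible bases and 21.4% with 4000 or more.

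The X chromosome held fewer regions per Mb than the autosomes in 3' UTR, introns and intergenic sequence. There were 15 in its 3' UTRs, 15.3 per Mb (8.55 to 25.2), beside 55.9 (53.1 to 58.9) on autosomes. Introns of X held 16.9 per Mb beside 48.6, and intergenic sequence 10.1 beside 36.2. Y held 0 of the 1452 regions, which allows a share of up to 0.254%.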

How the data were processed

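DNase-seq of hindbrain was analysed in 2 replicates of 1 group. Per the labels the authors aligned to mm10, and they called each library by itself. Aligner, caller and threshold: not given in the sources used here. The deposited peak value is a score from 1 to 150 of unstated scaling. The deposited hotspot tables give −log10 q values between 1.3 and 100, the cap.

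Peaks of both lists were merged at 1 bp. Places came from GENCODE M21 (GRCm38), with stop codons counted as coding. A host gene is the gene whose 3' UTR holds the midpoint. Sequence, GC, repeats and 19 consensus motifs were read from the genome in windows of 150 bp. Intervals are exact binomial (Clopper-Pearson), exact Poisson or order-statistic, at 95%. No p-values were computed. Python 3.11.15, numpy 2.4.6, pandas 2.3.3, scipy 1.17.1 and matplotlib 3.10.9 were used, and the placement was tested on simulated data.

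Regions and lists were chosen with earlier results of these data known; all 524 list entries matched the annotation. Named genes are the hosts of the 12 highest-ranked regions, the 10 genes with the most regions, up to 3 genes per list, the 8 highest-ranked CTCF regions outside chromosome 18 and the 3 regions on each side of the distance limit. Other names were chosen after their values were seen, further members of a list among them. Some genes picked by this rule are left out of the text. 10 alternatives were tried.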

Additional observations from a re-analysis of the deposited data

How the results depend on the processing

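Of 85 values recomputed under 10 alternatives, 63 stayed within 1.5 times the reported count or within the reported 95% interval, and 22 moved outside. A turn of direction was defined only for the ratio of 3' UTR to intron and that of first to last part, and 0 of those values turned. With only the stronger peaks (scores not under the median of the list), 830 regions were left, the 3' UTR to intron ratio was 1.24, recovery was 55.6% and 94.5%, the score percentile 78.7, GC 53.3%, the CTCF share 13.1% and the open host promoters 83.5%. A limit of 5000 bp left 945 regions. Counting only regions wholly inside 3' UTR gave ratios of 1.03 to intron and 1.06 of first to last of the 5 parts of the 3' UTR; the denominators were not changed with it. A reciprocal overlap of 50% lowered recovery to 43.8% and 75.9%. Hotspots in place of peaks gave a replicate 2 recovery of 85.0% and a GC of 51.3%; they have no score, so the percentile was not computed. With 1 replicate left out, the ranges were 1774 to 3086 regions, a ratio to intron of 1.17 to 1.19, a score percentile of 47.4 to 49.0, GC of 51.3% to 52.0%, a CTCF share of 4.67% to 7.33%, open host promoters of 87.6% to 90.6% and a ratio of first to last part of 1.29 to 1.3. These sets hold peaks that the other replicate lacks, which the reported set leaves out; recovery needs both replicates. No paired analysis was possible because there is 1 group. Read depth is unknown, so whether a region absent from replicate 2 was below detection cannot be said.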

Other observations

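The 40 regions with a higher raw score in replicate 2 than in replicate 1 had median scores of 35 in replicate 1 and 41 in replicate 2, beside 66 and 42 for the 1403 regions higher in replicate 1. A low replicate 1 score follows in part from how the 40 were chosen. Their median GC was 48.0%, beside 52.7%. Those whose percentile in replicate 2 exceeded that in replicate 1 the most lay in Sp9 (35 in replicate 1 and 51 in replicate 2), Impad1 (24 and 35), Shox2 (31 and 42), Otx1 (29 and 38) and Foxd1 (35 and 46). Of these 5 genes, all but Impad1 encode developmental transcription factors. Further factor genes among the 40 were Sox11, Sox17, Meis1 and Zic1. The other regions of Sox11, Meis1 and Zic1 scored higher in replicate 1, among them 109 and 78, 87 and 67, and 61 and 53. The order thus differed between regions of 1 gene. Some of the differences were small, with 54 and 55 in Meis1 and 33 and 36 in Zic1, and the scores have no measure of error. These genes were picked out after their values were seen. The share of such factors over all host genes is not given here, and none was tested. The percentile in replicate 1 exceeded that in replicate 2 the most in Ece1 (72 and 22), Tns1 (56 and 21), Trim9 (56 and 21), Tardbp (60 and 24) and Rmnd1 (55 and 22). Another region of Tns1 was among the 40, with 41 and 43.

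One wide region stood apart from the rest in the scores. It covers 470 bp in Lars2, which encodes the mitochondrial leucyl-tRNA synthetase, at chr9:123461756-123462225, and scored 99 in replicate 1 and 136 in replicate 2, the highest replicate 2 score of all 1452 regions. The region was merged from 3 peaks of replicate 1 and 4 of replicate 2, where most regions had 1 of each. No filter for sequence that recurs elsewhere in the genome was applied to the lists here. Whether such sequence bears on its score was not tested. This region was singled out after its values were seen.

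The CTCF matches in 3' UTR that lay in a peak of neither replicate numbered 61 of 209 (29.2%). The share was 58.2% in coding sequence, 40% in other exons, 41.5% in introns and 45.6% in intergenic sequence.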
